A study of Mus musculus with 2 samples.

Results

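Genes of the chemokine system were followed through mouse endometrium on day 3 of pregnancy, 8 of the 19070 genes covered by the probe set. They were the ligands Cxcl14, Cxcl12, Cxcl16, Cxcl17, Ppbp and Cx3cl1 and the receptors Ackr3 and Cxcr4. They were chosen by name with results of these data known: Cxcl14 because its UMIs were more frequent in d/d stroma, and Ppbp because it had appeared to mark a subset of epithelial cells. The Cxcl14 and Ppbp values are therefore a description and support nothing by themselves. The study compared 1 library of endometrial cells from Erbb3 f/f control females with 1 library of cells from Erbb3 d/d females. Per the labels the d/d females lack Erbb3 in the stroma, and both groups were sampled on the same day of pregnancy. The driver of the deletion, the number of mice behind each library and the mouse strain are not given in the sources used here. Cells were measured with the Chromium Flex assay, in which pairs of probes hybridise to transcripts of fixed cells and each captured molecule is counted as a unique molecular identifier (UMI). With 1 library per genotype every difference below compares 2 libraries, no test was possible, and all intervals are 95% intervals that cover counting error only.

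Chemokines are small secreted or membrane-anchored proteins that direct the movement of leukocytes and other cells through receptors with a serpentine fold in the membrane. Cxcl12 signals through Cxcr4, while Ackr3 binds the same ligand without classical G protein signalling and clears it from the tissue. Cxcl16 and Cx3cl1 are made as membrane proteins that proteases of the Adam family can release, Cxcl14 is made constitutively by many epithelia and fibroblasts, Cxcl17 is known from mucosal epithelia, and Ppbp is best known as a product of platelets and their precursors. In the uterus, chemokines of stroma and epithelium are known to place leukocytes around implantation.

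The ligands are named for the spacing of their first cysteines, which separates Cx3cl1 from the other 5, and the coding stretches around these cysteines are shown because they show at a glance how the members are related. All sequences are from GENCODE M21 transcripts on GRCm38, 5′ to 3′ on the coding strand. Capitals mark the 2 cysteine codons, found as the first pair with the family's spacing from codon 19 onward, and in Ppbp also the codons for glutamate, leucine and arginine before them, the signature of ligands that attract neutrophils.
Cxcl14: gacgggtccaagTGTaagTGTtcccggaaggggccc
Cxcl12: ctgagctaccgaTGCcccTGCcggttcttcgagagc
Cxcl16: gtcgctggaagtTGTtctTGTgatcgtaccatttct
Cxcl17: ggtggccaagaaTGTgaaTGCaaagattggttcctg
Ppbp: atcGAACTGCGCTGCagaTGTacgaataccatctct
Cx3cl1: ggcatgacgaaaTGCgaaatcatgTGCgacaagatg
One codon separated the cysteine codons in 5 ligands, and 3 codons separated them in Cx3cl1. The 2 receptors are shown at the intracellular end of the third membrane segment, a stretch that contacts G proteins, because it is where Cxcr4 and the atypical receptor Ackr3 part. Capitals mark the 2 codons that encode different residues within the 7 codons from the conserved aspartate codon (gac) on. Codons outside these 7 also differ between the receptors and are in lower case.
Cxcr4: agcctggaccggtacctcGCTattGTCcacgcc
Ackr3: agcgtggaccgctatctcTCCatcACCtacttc
The Cxcl14 stretch spans the junction of exons 1 and 2 of 4 (chr13:56295900-56296113, minus strand) and the Cxcl17 stretch the junction of exons 2 and 3 of 4 (chr7:25402240-25402881, minus strand). The other stretches lay within the second exon of their gene: Cxcl12 at chr6:117171496-117171531, Cxcl16 at chr11:70459112-70459147, Ppbp at chr5:90769073-90769108, Cx3cl1 at chr8:94778039-94778074, Cxcr4 at chr1:128589494-128589526 and Ackr3 at chr1:90214235-90214267.

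The f/f library held 5503 used cells with 5517795 UMIs and the d/d library 1830 cells with 1712695 UMIs, at a median of 809 and 764.5 UMIs per cell. Cells were assigned to classes from marker UMIs. The epithelial-like class had 1715 f/f and 585 d/d cells, the stroma-like class 1690 and 412, the endothelial-like class 127 and 40, and the myeloid-like class 71 and 24. The mesothelial-like, lymphoid-like and smooth muscle and pericyte-like classes had at most 28 cells in a library, and 1853 and 746 cells met no gate. The median mitochondrial share of stroma-like cells was 1.18% in f/f and 2.50% in d/d. The stroma-like gate was not pure. Markers of other cell types were among the leading genes of its sub-clusters 3 (Calb1, luminal), 4 (Gulo and Syn2, glandular) and 5 (Upk1b, mesothelial). Sub-cluster 6 was led by Hpgds, Cyth4, Mpeg1, Stab1 and Cd74, which also led the myeloid-like cluster 9 of all used cells, and by the dendritic marker Clec9a. Sub-clusters 3 to 6 together had 522 cells of the f/f and 165 of the d/d library, so values within single clusters are given beside those of the whole gate. Erbb3 itself had 23 UMIs in f/f stroma-like cells (14.01 CPM, the UMIs scaled to a class total of 1000000) and 3 in d/d ones (8.17 CPM), a log2 ratio of -0.78 (-3.16 to 0.95). Within the stroma-like class the labelled deletion was therefore not detectable from these counts. In f/f stroma-like cells, 12 epithelial genes not used in the gate stood at 16.5% to 38.4% of their epithelial-like level. Whether the stroma-like Erbb3 UMIs came from stromal cells was not tested. In epithelial-like cells, which the labelled deletion does not concern, Erbb3 stood at 81.8 and 55.4 CPM, a ratio of -0.56 (-1.17 to 0.01), and over all used cells at 49.1 (43.4 to 55.3) and 27.4 (20.2 to 36.5) CPM. Cells that met no gate held 101 f/f and 12 d/d Erbb3 UMIs, or 53.1 (43.2 to 64.5) and 16.8 (8.66 to 29.3) CPM. Whether the probes lie in the deleted part is not given in the sources used here.

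Cxcl14, the member with the most UMIs, was highest in stroma-like cells of both libraries and higher in d/d than in f/f. Stroma-like cells held 323 f/f and 223 d/d Cxcl14 UMIs, or 197 (176 to 219) and 607 (530 to 692) CPM. The intervals of the 2 libraries did not overlap, and the d/d level was 3.09-fold the f/f level, a log2 ratio of 1.63 (1.37 to 1.88). Of 5698 genes with at least 100 UMIs in this class, 7 had a higher ratio, and 1.56% were more than 2-fold higher and 2.81% more than 2-fold lower in d/d. After every cell had been thinned to 500 UMIs, 7.44% (6.23 to 8.81) of 1679 f/f and 18.9% (15.3 to 23.1) of 412 d/d stroma-like cells had a Cxcl14 UMI, against 12.8% and 26.7% without thinning. No single barcode held more than 8 of its 541 f/f or 11 of its 560 d/d UMIs over all deposited barcodes.

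The largest stromal sub-cluster, number 1, led by Ccdc68, Apcdd1 and Hoxa9, had a median mitochondrial share of 0.54% in f/f and 0.53% in d/d. There, 731 f/f cells held 151 Cxcl14 UMIs (273 CPM) and 95 d/d cells held 94 (1473 CPM), a log2 ratio of 2.43 (2.05 to 2.81). In that sub-cluster 1.65% of 1640 genes were more than 2-fold higher in d/d. The stromal sub-cluster 2, led by mitochondrial transcripts (median share 4.04% and 5.76%), had 158 and 651 CPM, a log2 ratio of 2.05 (1.49 to 2.61), beside 0.966% of 828 genes more than 2-fold higher in d/d.

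Cxcl14 was also higher in d/d in cells gated as epithelial-like or endothelial-like. Epithelial-like cells held 40 Cxcl14 UMIs in f/f (22.6 CPM, 16.1 to 30.7) and 64 in d/d (114 CPM, 88.1 to 146). This 5.07-fold ratio, 2.34 (1.75 to 2.95) on the log2 scale, was exceeded by 2 of 5938 genes with at least 100 UMIs in the class, of which 4.61% were more than 2-fold higher and 4.73% more than 2-fold lower in d/d. At 500 UMIs per cell, 1.11% (0.669 to 1.73) of f/f and 5.47% (3.77 to 7.63) of d/d epithelial-like cells had a Cxcl14 UMI (1.98% and 8.89% without thinning). Among endothelial-like cells the shares were 0 of 126, which allows a share of cells with a UMI of up to 2.38%, and 4 of 40, or 10% (2.79 to 23.7). Without thinning, 1 of 127 and 5 of 40 endothelial-like cells had a Cxcl14 UMI, from 1 and 7 UMIs. Median depths were alike, at 874 and 853 UMIs for epithelial-like, 756.5 and 730.5 for stroma-like and 667 and 750 for endothelial-like cells.

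Whether these UMIs belong to epithelial cells or to stromal RNA in their droplets was read against other stromal genes. The epithelial-like level of Cxcl14 was 11.5% (8.04 to 16.0) of the stroma-like level in f/f and 18.9% (14.05 to 25.0) in d/d. For stromal genes not used in the gate, picked after the data had been seen, the median was 4.51% in f/f (12 genes, 3.31% to 43.0%) and 3.14% in d/d (10 genes, 1.82% to 49.3%), with Pcolce highest in both. The epithelial-like d/d over f/f log2 ratio of 12 such genes had a median of -0.39 (range -1.34 to 1.08), below the 2.34 of Cxcl14 in each case. In stroma-like cells the ratio of 13 such genes had a median of -0.005 (range -1.93 to 0.67), where Cxcl14 had 1.63. None of them rose in stroma-like cells as far as Cxcl14, so their epithelial ratios cannot show how carried-over Cxcl14 RNA would behave. Free Cxcl14 RNA itself was not measured. Its part in the epithelial-like and endothelial-like values, and in those of the clusters below, was not tested.

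**Figure D1:**
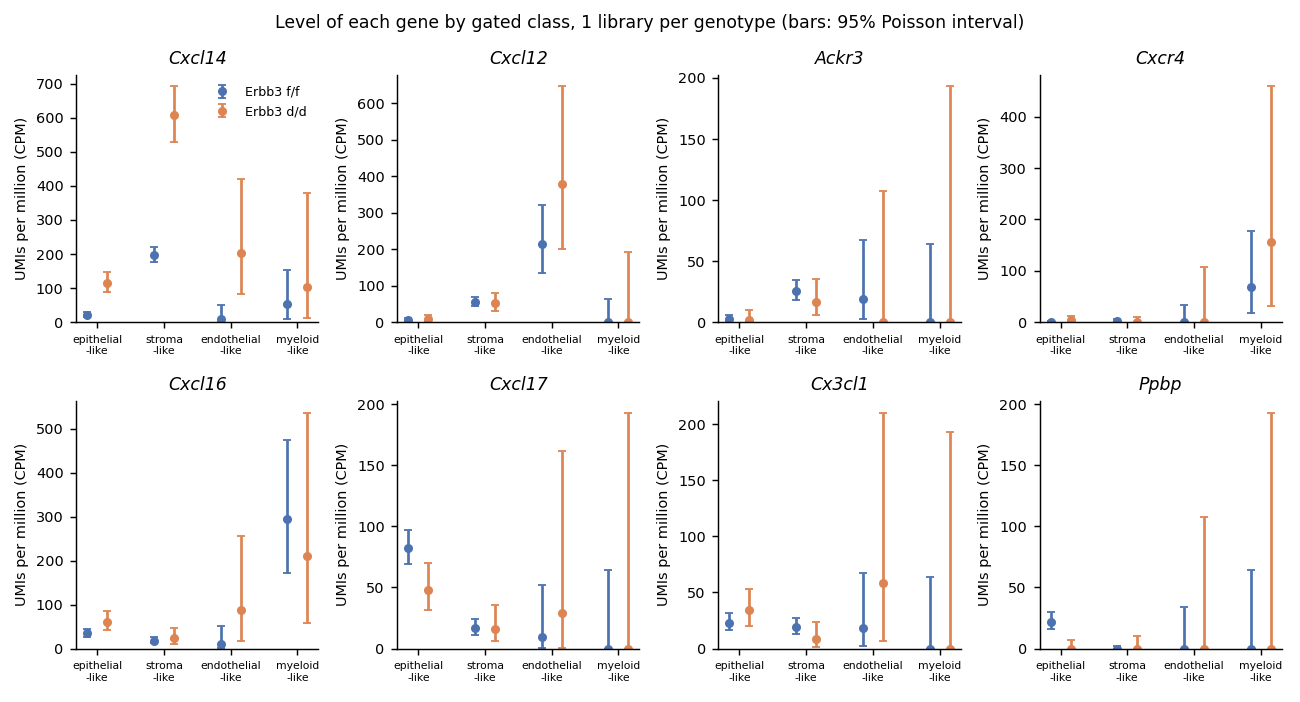
Level of the 8 genes (CPM, y axis, a separate scale per gene) in 4 gated classes (x axis) of the f/f library (blue) and the d/d library (orange), with bars for the 95% Poisson interval. The d/d Cxcl14 points (607 CPM in stroma-like, 114 CPM in epithelial-like cells) stand clear of the f/f points (197 and 22.6 CPM), while the bars of most other genes overlap.

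When all used cells were clustered without the members, Cxcl14 was higher in d/d in each of the 11 clusters that held at least 10 of its UMIs, and in 9 of them the interval lay above 0. The log2 ratios ran from 0.10 in cluster 13 (led by Rgs5), with 9 UMIs and 1 UMI, to 3.68 in epithelial-like cluster 1 (led by Slc5a11), with 17 and 4. The stroma-like cluster 2, led by Pth1r and Col7a1, went from 233 CPM in f/f to 1024 CPM in d/d. Cluster 3, led by Slc2a3 and the gland markers Syn2 and Gulo, had 48.1 and 389 CPM, the endothelial-like cluster 10 had 41.0 and 206 CPM, and the myeloid-like cluster 9 had 158 and 297 CPM. Clusters 4 and 8, led by cycle genes, had 24.7 and 134 CPM and 13.0 and 136 CPM, and cluster 11, also led by cycle genes, held 0 and 1 Cxcl14 UMI in 59 and 27 cells. All 7 stromal and all 3 epithelial sub-clusters with at least 10 Cxcl14 UMIs were higher in d/d too, with the interval above 0 in 5 of the stromal and 2 of the epithelial ones. The higher d/d level was thus found within clusters as well as in the class sums.

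**Figure D2:**
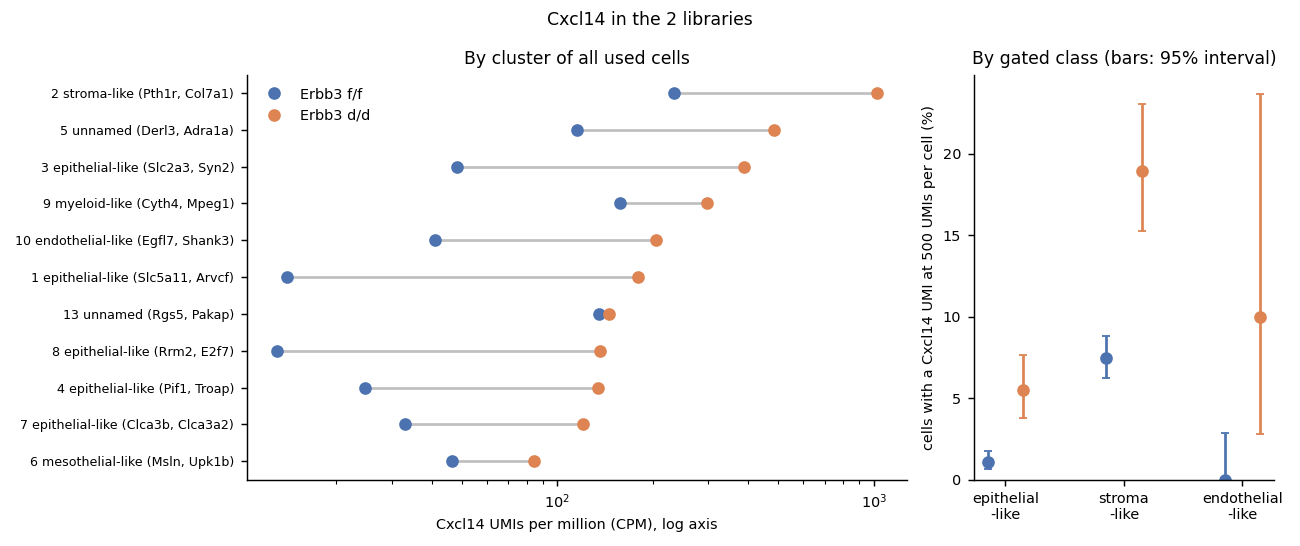
Left, Cxcl14 level (CPM, log axis) in the f/f (blue) and d/d (orange) library in each cluster with at least 10 Cxcl14 UMIs, named by number, class and leading genes; right, the percent of cells with a Cxcl14 UMI after thinning to 500 UMIs per cell, with 95% Clopper-Pearson intervals. Every orange point on the left lies to the right of its blue point, with the gap smallest for cluster 13 (135 and 145 CPM).

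Cxcl12 and its receptors showed no library difference beyond counting error in any gated class. For Cxcl12 a division between cell classes was seen in both libraries. Among the 4 larger classes Cxcl12 was highest in endothelial-like cells, with 23 f/f UMIs (214 CPM, 136 to 321) and 13 d/d UMIs (378 CPM, 201 to 647), next in stroma-like cells, with 91 (55.4 CPM, 44.6 to 68.0) and 19 (51.7 CPM, 31.1 to 80.8), and lower in epithelial-like cells, with 10 (5.64 CPM) and 5 (8.94 CPM). The endothelial-like and stroma-like intervals did not overlap in either library, nor did the stroma-like and epithelial-like ones. No Cxcl12 UMI was seen in 71 f/f and 24 d/d myeloid-like cells, which allows up to 52.1 and 157 CPM, while the wider myeloid-like cluster 9 held 25 and 14 (56.5 and 69.2 CPM). The small smooth muscle and pericyte-like and mesothelial-like classes had 188 and 97.8 CPM in f/f, from 2 UMIs each, and none in d/d. The d/d over f/f log2 ratio was -0.10 (-0.90 to 0.63) in stroma-like and 0.82 (-0.28 to 1.86) in endothelial-like cells. In the endothelial-like cluster 10, which gathered 259 f/f and 67 d/d cells, Cxcl12 had 77 and 18 UMIs, or 287 and 308 CPM. With at most 5% mitochondrial UMIs allowed, 3 d/d endothelial-like UMIs were left and the ratio there turned to -0.79 (-3.17 to 0.93). In stromal sub-cluster 1, the 731 f/f cells held 43 Cxcl12 UMIs (77.7 CPM) and the 95 d/d cells none, which allows up to 47.0 CPM, and the interval of the log2 ratio lay below -0.36. In sub-cluster 2 there were 23 (64.7 CPM) and 11 (126 CPM), a ratio of 0.96 (-0.23 to 2.05) that did not stand clear of counting error. The stroma-like cluster 2 of all used cells had 65 and 10 Cxcl12 UMIs, or 68.8 and 64.8 CPM, a ratio of -0.09 (-1.21 to 0.88). The share of all genes lower in d/d was not counted for sub-cluster 1.

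Ackr3, the scavenging receptor, was found in f/f mainly in stroma-like cells. Stroma-like cells held 42 of its 55 f/f UMIs (25.6 CPM, 18.4 to 34.6) and 6 of its 13 d/d UMIs (16.3 CPM, 5.99 to 35.6), against 4 (2.26 CPM) and 1 (1.79 CPM) in epithelial-like cells. Cells that met no gate held 6 in each library. The ratio in stroma-like cells was -0.65 (-2.17 to 0.59), and in sub-cluster 1 it was 0.31 (-2.08 to 2.05) from 21 and 3 UMIs. Cxcr4, the signalling receptor, was the rarest member, with 19 f/f and 13 d/d UMIs in used cells. Its level was highest in myeloid-like cells, with 4 UMIs (69.5 CPM) and 3 (157 CPM), and the myeloid-like cluster 9 held 12 and 8. Endothelial-like cells had no Cxcr4 UMI, which allows up to 27.9 CPM in f/f and 87.3 CPM in d/d, and the wider endothelial-like cluster 10 held 3 f/f UMIs (11.2 CPM) and no d/d UMI. No cell of either library had UMIs of both receptors, among 55 and 12 cells with Ackr3 and 16 and 11 with Cxcr4. Cxcl12 was found together with Ackr3 in 2 f/f cells and 1 d/d cell, and together with Cxcl14 in 19 and 10 cells. At a median of under 1000 UMIs per cell such counts are low for any pair of rare transcripts.

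The membrane-anchored ligands Cxcl16 and Cx3cl1 and the mucosal ligand Cxcl17 were all detected in the epithelium. For Cxcl17, epithelial-like cells held 146 UMIs in f/f (82.4 CPM, 69.6 to 96.9) and 27 in d/d (48.3 CPM, 31.8 to 70.3). The d/d value was lower, with a log2 ratio of -0.77 (-1.42 to -0.17), inside the middle 95% of all genes of the class (-1.30 to 1.26). The lower value was not found in each group of epithelial cells. In epithelial sub-cluster 1 (Slc5a11, Slc51a), Cxcl17 had 107 and 58.4 CPM, a ratio of -0.87 (-2.35 to 0.30). In the cycling sub-cluster 2 it had 52.2 and 44.9 CPM, a ratio of -0.22 (-1.21 to 0.75). The gland-led sub-cluster 3 held 10 and 2 Cxcl17 UMIs. Among the clusters of all used cells, Cxcl17 was higher in d/d in the gland-led cluster 3 at 48.1 and 170 CPM (31 and 7 UMIs), a ratio of 1.82 (0.39 to 3.03). In the epithelial-like cluster 7 it was lower in d/d at 151 and 70.1 CPM, a ratio of -1.11 (-2.13 to -0.16). The f/f epithelial-like class held 987 cells of sub-cluster 1 and 304 of sub-cluster 2, the d/d class 141 and 356, so the mix of these sub-clusters differed with the value, and its part was not tested. In stroma-like cells Cxcl17 stood at 19.96% (f/f) and 33.8% (d/d) of the epithelial level, beside a median of 22.3% and 27.8% for 12 epithelial genes outside the gate, and the source of these UMIs was not tested.

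Among the gated classes Cxcl16, the ligand of Cxcr6, was highest in myeloid-like cells, with 17 UMIs in f/f (295 CPM, 172 to 473) and 4 in d/d (209 CPM, 57.1 to 536). Epithelial-like cells had 61 (34.4 CPM, 26.3 to 44.2) and 34 (60.8 CPM, 42.1 to 85.0), and stroma-like cells 30 (18.3 CPM) and 9 (24.5 CPM). In d/d the myeloid-like and epithelial-like intervals overlapped. The wider myeloid-like cluster 9 held 39 and 15 UMIs (88.1 and 74.1 CPM), beside 70.8 and 80.2 CPM in epithelial-like cluster 7. The epithelial ratio of Cxcl16 was 0.82 (0.17 to 1.45), with levels of 31.6 and 97.4 CPM in sub-cluster 1 and 52.2 and 52.8 CPM in sub-cluster 2. Over all used cells Cxcl16 had 154 and 89 UMIs, a log2 ratio of 0.90 (0.50 to 1.28). Cx3cl1, the ligand of Cx3cr1, had 41 UMIs in f/f epithelial-like cells (23.1 CPM, 16.6 to 31.4) and 19 in d/d ones (34.0 CPM, 20.5 to 53.1), a ratio of 0.55 (-0.31 to 1.37). Its stroma-like values were 31 UMIs (18.9 CPM) and 3 (8.17 CPM), a ratio of -1.21 (-3.56 to 0.47). In f/f the stroma-like level of Cx3cl1 was 81.6% (49.5 to 133) of the epithelial level, above the 16.5% to 38.4% of the 12 epithelial genes outside the gate. In d/d it was 24.04% (4.56 to 81.7), inside the 7.71% to 45.2% of those genes.

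With a minimum of 20 UMIs over both libraries, 1 of 5 members in epithelial-like cells (Cxcl14) was more than 2-fold higher in d/d and 1 (Ppbp) had UMIs in f/f alone, where 14.8% of all genes of that depth were past 2-fold (7.16% higher and 7.64% lower). In stroma-like cells 1 of 6 (Cxcl14) was higher and 1 (Cx3cl1) lower, where 12.1% of all genes were past 2-fold (5.04% higher and 7.06% lower). With a minimum of 100 UMIs, 2 members were counted in each class, and the share of all genes past 2-fold was 9.35% in epithelial-like and 4.37% in stroma-like cells. Apart from Cxcl14, and from Ppbp with UMIs in 1 library alone, the members lay within the spread of all genes.

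**Figure D3:**
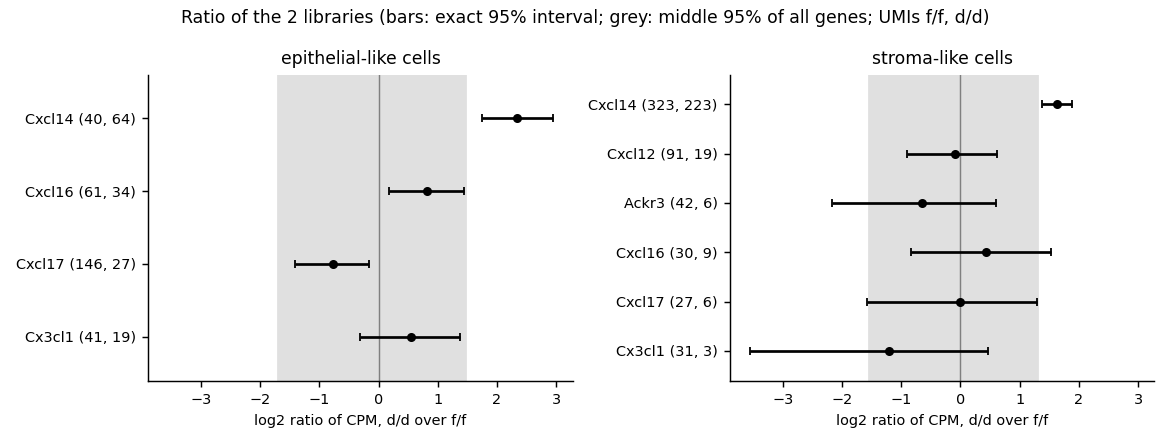
Log2 ratio of CPM, d/d over f/f (x axis), of the members with at least 20 UMIs in the class and UMIs in both libraries, with exact conditional binomial 95% intervals and the UMIs (f/f, d/d) beside each name. Grey bands show the middle 95% of all genes with at least 20 UMIs (-1.70 to 1.48 in epithelial-like, -1.54 to 1.30 in stroma-like cells), and only Cxcl14 lies outside them.

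Ppbp did not mark a subset of epithelial cells in these files. All 39 of its f/f UMIs came from 1 barcode, an epithelial-like cell with 8180 UMIs, 2847 genes and 2.75% mitochondrial UMIs. The other 1714 f/f epithelial-like cells had no Ppbp UMI, which allows up to 1.70 CPM, nor did the 585 d/d ones, which allows up to 5.37 CPM. The d/d library held 2 Ppbp UMIs, each in a barcode left out for its mitochondrial share (10.2% and 12.6%). The f/f epithelial-like value of 22.0 CPM is thus the content of 1 droplet and falls to 0 without it. Among the other members, the top barcode held between 1.48% and 11.5% of a gene's UMIs.

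That barcode lay in cluster 7, whose leading genes were Clca3b, Clca3a2, Ltf, Ecm1 and Ppbp. Leading genes were ranked on the summed UMIs of a cluster. All Ppbp and Clca3b UMIs of cluster 7 came from this barcode, so their lead there follows from its place in the cluster. The genes named below were picked for the highest ratio in this barcode, among genes with at least 50 UMIs there. It held all 71 f/f UMIs of Clca3b, a gene of the chloride channel accessory family, 53 of 62 of the related Clca3a2, 104 of 254 of Ecm1, an extracellular matrix protein, and 296 of 1209 of Ltf, the secreted iron-binding lactoferrin of the estrogen-stimulated epithelium. The other 237 f/f and 272 d/d cells of cluster 7 had no Ppbp UMI, no Clca3b UMI, and at most 6 (f/f) and 4 (d/d) Ltf UMIs in any cell. The other named genes of this barcode were Fth1 (104 UMIs), Gsto1 (90), Spns2 (59), Padi1 (53), Krt7 (51) and Mprip (51).

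Markers of other cells were looked for in the Ppbp barcode. It had 67 UMIs of the epithelial markers (36 of Elf3 and 2 of Epcam), 3 of the stroma, 5 of the myeloid (all Cd14) and 5 of the neutrophil markers (1 of S100a8 and 4 of S100a9), and 0 UMIs over all 10 platelet and megakaryocyte markers. Over all used f/f cells these 10 markers had 219 UMIs and over all used d/d cells 80, most of them from the integrin genes Itgb3 (126 and 44) and Itga2b (83 and 32), with 3 markers at 0 in f/f and 5 in d/d. The defining platelet genes Gp9 and Gp6 were at 0 in both libraries, and Pf4 had 4 f/f UMIs and no d/d UMI. The depth of the Ppbp barcode ranked 57 among the 5783 f/f barcodes, counted from the highest.

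**Figure D4:**
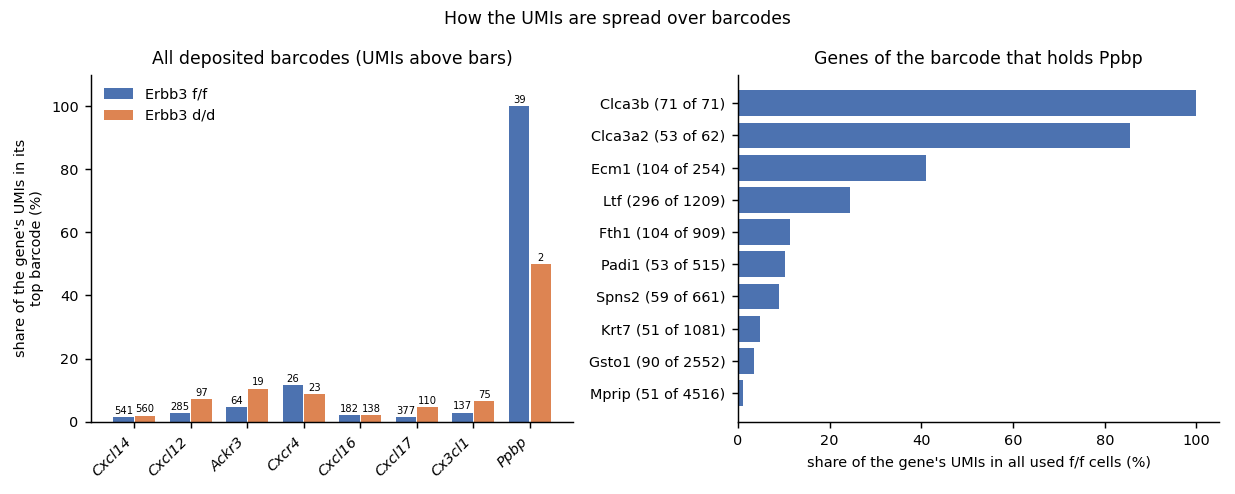
Left, the percent of each gene's UMIs that lay in the barcode richest in it (y axis) over all deposited barcodes of the f/f (blue) and d/d (orange) library, with the gene's total UMIs above the bars. Right, the percent of all f/f UMIs of 10 genes that lay in the barcode holding Ppbp. These 10 genes were picked for their high ratio in that barcode. Ppbp stands apart at 100% of 39 f/f UMIs (and 1 of 2 in d/d), and Clca3b (100%) and Clca3a2 (85.5%) share its barcode.

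The rest of the chemokine system was sparse. Of 32 further ligands, 30 were on the probe set and 26 had a UMI, but 5 had at least 20 over all used cells. These were Ccl28 (311 and 152 UMIs), Cxcl15 (193 and 23) and Ccl25 (109 and 29), and at lower counts Ccl21a (21 and 11) and Ccl5 (13 and 10), these last named after their values had been seen. Ccl25 stood at 32.3 and 27.2 CPM in stroma-like and at 12.4 and 8.94 CPM in epithelial-like cells. Of 21 further receptors, 20 were on the probe set and 18 had a UMI, among them Ccr2 (30 and 13), also named after its values had been seen. Ccl27a, Cxcl11 and Cx3cr1, the receptor of Cx3cl1, had no row, and Cxcr6, the receptor of Cxcl16, had 4 and 7 UMIs.

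Among these ligands, Ccl28, which is known from mucosal epithelia, had 138 UMIs in f/f epithelial-like cells (77.9 CPM) and 64 in d/d ones (114 CPM), a log2 ratio of 0.56 (0.10 to 0.99). In stroma-like cells it had 40 (24.4 CPM) and 19 (51.7 CPM), a ratio of 1.09 (0.22 to 1.91). Cxcl15, a gene of the gland-led cluster 3, had 61 UMIs (34.4 CPM) and 10 (17.9 CPM) in epithelial-like cells, a ratio of -0.94 (-2.07 to 0.03). The 8 glandular epithelial markers together had 1859 f/f and 235 d/d UMIs, with Prss28 at 0 in d/d, and the part of gland-like cell number in the Cxcl15 value was not tested.

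Of 19 genes that process, bind or signal for chemokines, all were on the probe set and 16 had at least 20 UMIs. With a minimum of 100 UMIs, none of 11 was past 2-fold in epithelial-like cells, where 9.35% of all genes were, and 1 of 11 (Sdc1) in stroma-like cells, where 4.37% were. The medians of their log2 ratios were 0.19 and 0.23, beside -0.03 and -0.07 for all genes of the classes. With a minimum of 20 UMIs, 2 of 15 (Sdc1 and Arrb1) were more than 2-fold higher in epithelial-like cells, where 14.8% of all genes were past 2-fold. In stroma-like cells 1 of 14 (Sdc1) was higher and 1 (Adam17) lower, where 12.1% were past 2-fold. Adam17 in stroma-like cells and Sdc1 in epithelial-like cells had fewer than 100 UMIs. Sdc1, a heparan sulfate proteoglycan that holds chemokines at the cell surface, had 89 UMIs in f/f stroma-like cells (54.2 CPM) and 40 in d/d ones (109 CPM), a ratio of 1.01 (0.43 to 1.56), and 1.06 (0.30 to 1.80) in epithelial-like cells. Adam17, a protease that sheds Cx3cl1 and Cxcl16, had 90 (54.8 CPM) and 8 (21.8 CPM) in stroma-like cells, a ratio of -1.33 (-2.59 to -0.29), against -0.21 (-0.87 to 0.40) in epithelial-like cells. Mmp2, which cleaves Cxcl12, had 1205 and 358 UMIs in stroma-like cells, a ratio of 0.41 (0.24 to 0.58). Dpp4, a peptidase that trims Cxcl12, had a ratio of 0.19 (-0.21 to 0.58) in epithelial-like cells. The arrestin Arrb2 had 0.58 (0.26 to 0.90) there and 0.13 (-0.18 to 0.42) in stroma-like cells. The related arrestin Arrb1 had 37 and 27 UMIs in epithelial-like cells, below the minimum of 100, and a ratio of 1.21 (0.44 to 1.96).

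**Figure D5:**
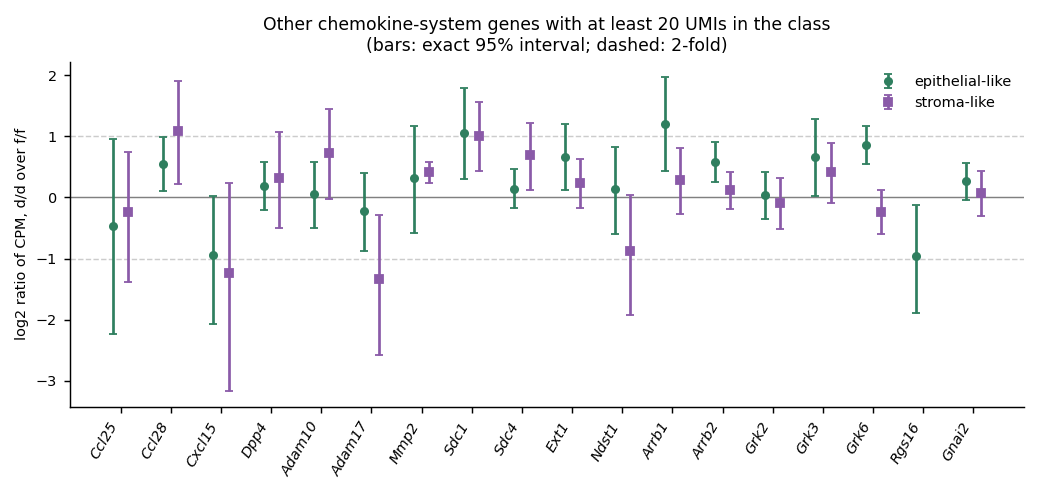
Log2 ratio of CPM, d/d over f/f (y axis), of further chemokine ligands (Ccl25, Ccl28, Cxcl15) and of genes that process, bind or signal for chemokines, with at least 20 UMIs in epithelial-like (green circles) or stroma-like (purple squares) cells and exact 95% intervals. Most points lie between the dashed 2-fold lines, with Sdc1 (1.01 and 1.06), Arrb1 in epithelial-like (1.21) and Ccl28 in stroma-like cells (1.09) above and Adam17 (-1.33) and Cxcl15 (-1.23) in stroma-like cells below.

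The genes whose levels ran most like each member were ranked by Pearson's r over 14 points, the 7 gated classes in the 2 libraries, which share depth and cell numbers, among 9740 genes with at least 100 UMIs. For Cxcl12 they were Ptprm (0.98), Fbxl7 (0.97) and Rhoj (0.96), and for Ackr3 Rbpms2 (0.99), Ppfia2 (0.97) and Akr1b8 (0.96). For Cxcl17 they were Arhgap8 (0.99), Erbb3 (0.98) and Napepld (0.97). Cxcl17 and Erbb3, the gene labelled as deleted, were both highest in epithelial-like cells. In gated classes other than epithelial-like and stroma-like, neither had more than 2 UMIs in a library, so this r shows little beyond that shared class. For Cxcl16 they were Uap1l1, C9orf72 and Arhgef6 (0.97 to 0.96), for Cx3cl1 Mtch2, Zfp212 and Fam184b (0.99 to 0.98), and for Cxcr4 Fcer1g, Gpnmb and Slc43a2 (0.97 to 0.96). Cxcl14 had the loosest match, with 0.87 for Ddah2 and 0.86 for Psmb5 and Ubfd1. Its points included 110 CPM in d/d mesothelial-like and 178 CPM in d/d lymphoid-like cells, from 1 UMI each. Ppbp has 1 point above 0 and its matches carry no information. The highest Ackr3 point, 94.0 CPM in f/f smooth muscle and pericyte-like cells, was 1 UMI in 15 cells. The highest point of Cxcr4 (157 CPM, d/d myeloid-like) was 3 UMIs and that of Cx3cl1 (58.2 CPM, d/d endothelial-like) was 2, so these matches depend on few UMIs.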

How the data were processed

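The deposited values were unnormalised counts of UMIs, and per the file headers the matrices came from Cell Ranger 9.0.0; the submitters' processing notes name mm10 and GRCm39 without a role. Barcodes with at least 200 genes and at most 10% mitochondrial UMIs were used, which left out 280 f/f and 295 d/d barcodes. Scrublet called 0 and 1 doublets and so had not worked. A cell entered a class with at least 2 marker UMIs of it that made up at least 66.7% of its UMIs of the markers of 7 classes. Class UMIs were summed and scaled to CPM. Sums have exact Poisson, shares Clopper-Pearson and ratios exact conditional binomial 95% intervals, and a count of 0 was taken to allow 3 counts. Clusters (scanpy 1.11.5, leidenalg 0.10.2) used 2000 variable genes without the members, 30 components and 15 neighbours, at resolution 1 for all cells and 0.5 within a class. Clusters were named from the same markers. Of the 16-base cell parts of the barcodes, 158 occurred in both libraries, but no whole barcode did. The ratios and intervals were checked on simulated counts.

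The members and lists were chosen with earlier results of these data known. Named genes were the members, genes of the 3 chemokine lists with at least 20 UMIs, the 3 genes most like each member by r of log2(CPM + 10), and the 10 genes of highest ratio in the Ppbp barcode with at least 50 UMIs there. Alternatives changed the gate, the classes, the filters, the thinning and the scaling (TMM, edgeR 4.0.16).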

Additional observations from a re-analysis of the deposited data

Results flagged for a closer look

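Barcodes that the main comparisons left out, those with over 10% mitochondrial UMIs, also held the members. In the 295 d/d barcodes of that kind Cxcl14 stood at 110 CPM (91.7 to 131), above the 59.9 CPM (47.4 to 74.8) of the 280 f/f ones, from 127 and 78 UMIs. Cxcl16 stood there at 42.5 CPM (31.4 to 56.1), above 21.5 CPM (14.3 to 31.1), from 49 and 28 UMIs. These barcodes were deeper than the used cells, at a median of 1599 UMIs in d/d and 2111.5 in f/f.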

How the results depend on the processing

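No paired analysis was possible because each genotype has 1 library. Under 12 alternatives each, Cxcl14 stayed higher in d/d in both classes. Its epithelial-like log2 ratio ran from 2.15 to 2.52. Its stroma-like ratio of 1.63 became 1.92 with a gate share of 0.8, 2.14 with no UMI of other classes, 2.14 with classes from clusters, 2.13 where gate and cluster gave the same class (added after seeing the data) and 1.37 with every deposited barcode, where high mitochondrial barcodes enter. Cxcl16, Cxcl17 and Cx3cl1 in epithelial-like cells kept their sign under all 12. With at most 5% mitochondrial UMIs, Cxcl12 went to -0.96 (-2.32 to 0.16) in stroma-like and -0.79 in endothelial-like cells; the cause was not tested. Cxcl17 in stroma-like cells went to 1.37 (-0.75 to 3.17) where gate and cluster gave the same class. A minimum of 20 in place of 100 UMIs moved the share of genes past 2-fold from 9.35% to 14.8% in epithelial-like and from 4.37% to 12.1% in stroma-like cells. Of the 24 genes named as most like a member, 18 were also named with a pseudocount of 1. Depth limits most members: under 10 d/d UMIs in a class gave intervals over 2 log2 units wide.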
